A study of Mus musculus with 2 samples.

Results

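The genes described here are 45 members of the TGF-beta and BMP pathway, taken as every non-control probe whose gene name in the scanner output is one of 45 names covering ligands, latent TGF-beta binding proteins (LTBPs), antagonists, receptors, SMAD proteins, ID targets and *Ctgf*. They are 45 of 37074 gene names on the microarray and were measured by 84 of its 56605 probes. The question was how these genes differed in mouse cardiomyocytes (MCMs) after knockdown of *Ppp2r5d*, which encodes a regulatory subunit of protein phosphatase 2A. After transfection with siRNA-*Ppp2r5d*, *Id2* was 2.18-fold higher than with siRNA-NC and was the 1 member past 2-fold. *Ltbp2* was 1.83-fold lower and *Smad6* 1.61-fold lower, and the other members with a value on both arrays differed by less than 1.5-fold.

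Ligands of the TGF-beta superfamily bind pairs of type I and type II serine/threonine kinase receptors at the cell surface. The type I receptor phosphorylates receptor SMADs, of which *Smad2* and *Smad3* serve TGF-beta and activin ligands and *Smad1*, *Smad5* and *Smad9* serve BMP ligands. These join the common SMAD, *Smad4*, and enter the nucleus, where BMP signals raise transcription of the ID genes in many cell types and TGF-beta signals raise that of *Ctgf* and matrix genes. Latent TGF-beta is held in the extracellular matrix by LTBPs, antagonists such as noggin and gremlin trap BMP ligands, and the inhibitory SMADs, *Smad6* and *Smad7*, act in negative feedback. In the heart the pathway is best known for its part in valve formation and in fibrosis.

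MCMs are cultured cells that were bought as mouse cardiomyocytes, passaged, and kept in DMEM with 2% fetal bovine serum. One culture received siRNA-NC, a negative control siRNA, and the other siRNA-*Ppp2r5d*, both with a lipid transfection reagent. Both cultures were moved to medium without glucose at 48 h and gave RNA at 64 h, and the labels name no other agent for either culture. With 1 array per condition, each hybridized with Cyanine 3-labelled cRNA made from 0.2 µg of total RNA, no difference has a replicate check, no test was possible, and all folds are differences between these 2 cultures.

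The scanner software gave each spot a background-corrected intensity and marked whether it was well above background. These intensities are printed as they were deposited, before any scaling, and levels of different genes are not compared, since probes differ in brightness, except to pick genes of a similar signal as a background. Fold changes were computed after dividing by the 75th percentile of each array, which was 592 in intensity with siRNA-NC and 518 with siRNA-*Ppp2r5d*. A log2 fold change is siRNA-*Ppp2r5d* minus siRNA-NC throughout, so a probe with equal intensities on both arrays has a value above 0. *Tgfb3*, with nearly equal intensities of 27357 and 27306, lay at 0.19, just above the upper quartile of all genes, 0.18. For a gene with several probes, the mean was taken over those that passed background on each array.

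Over 20311 genes measured on both arrays the median log2 fold change was 0.025, with quartiles of -0.16 and 0.18. The median SD of the log2 fold change was 0.036 between spots of a probe (300 probes, 10 spots each). It was 0.12 between probes of a gene (7139 genes). Both SDs come from the same 2 arrays. They cover error between spots and probes, but not that of labelling and hybridization or the spread between cultures. *Ppp2r5d*, the target of the siRNA, went from 4701 with siRNA-NC to 676 with siRNA-*Ppp2r5d*, a log2 fold change of -2.61. Of 14 cardiomyocyte markers, 9 were well above background on both arrays, *Myh6* and *Ryr2* on 1 array, and *Actn2*, *Pln* and *Myl2* on neither, while 7 of 9 fibroblast markers and 4 of 4 smooth muscle markers were measured on both. The labelled cell type was therefore only partly matched by its defining markers. Their summed scaled levels were 14.8 and 14.9 for cardiomyocyte, 53.9 and 50.3 for fibroblast and 22.3 and 35.4 for smooth muscle markers, with siRNA-NC and siRNA-*Ppp2r5d* in that order. A sum is carried by its brightest genes, such as *Actc1* at 6443 and 5268. Of the 9 cardiomyocyte markers 7 lay above 0, with a median log2 fold change of 0.42. *Ttn* (0.89), *Myl3* (0.90) and *Nppa* (0.62) were past 1.5-fold, as were 3.79% of all genes. *Nppa*, at 16.6 and 22.4 on 1 of its 2 probes, lay near the lowest signals well above background, 14.9 and 13.5. *Myl3* was dim as well, at 40.4 and 66.2, and *Ttn* had mean intensities of 292 and 408. Of the 7 fibroblast markers 3 lay above 0, with *Lum* at 1.08 and *Pdgfra* at 0.62. The endothelial value (0.094 and 0.080) was that of *Pecam1* alone, and the epithelial value (8.81 and 6.09) that of *Krt14* alone. The macrophage sum over 3 genes was 2.51 and 2.38. None of these was higher with siRNA-*Ppp2r5d*. The endothelial *Cdh5*, *Kdr* and *Emcn*, the macrophage *Adgre1* and the epithelial *Krt5*, *Epcam* and *Cdh1* were on neither array. The endothelial *Tek* passed background with siRNA-*Ppp2r5d* alone (8.39 and 18.7), a log2 bound of 0.52. The higher smooth muscle sum came with *Tagln* and *Cnn1*, at log2 fold changes of 0.85 and 2.41 beside -0.02 for *Acta2* and -0.38 for *Myh11*. The part of these markers in the values of the pathway genes was not tested. In such bulk RNA, fewer cells of a type and less RNA per cell cannot be told apart.

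Of the 45 members, 39 passed background on both arrays and *Acvrl1* on the siRNA-NC array alone. *Mstn*, *Bmp2*, *Bmp5*, *Bmp7* and *Id4* were not well above background on either array and have no fold change. Of the 84 probes, 69 were measured on both arrays, 1 on 1 array and 14 on neither.

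At the 2-fold threshold 1 member was higher (*Id2*), against 1.01% of the 21638 genes that passed background on 1 array or both, and 0 members were lower, against 1.42% of those genes. At 1.5-fold 1 member was higher, against 3.79% of all genes, and 2 members were lower, against 5.38% of all genes. Among the 39 members with a value, 18 lay above 0 and 21 below, with a median of -0.022 and a range from -0.87 to 1.13. Among all genes measured on both arrays 54.0% lay above 0. The values of 16 members were inside the quartiles of all genes, and 9 were within 0.1 of 0.

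**Figure D1:**
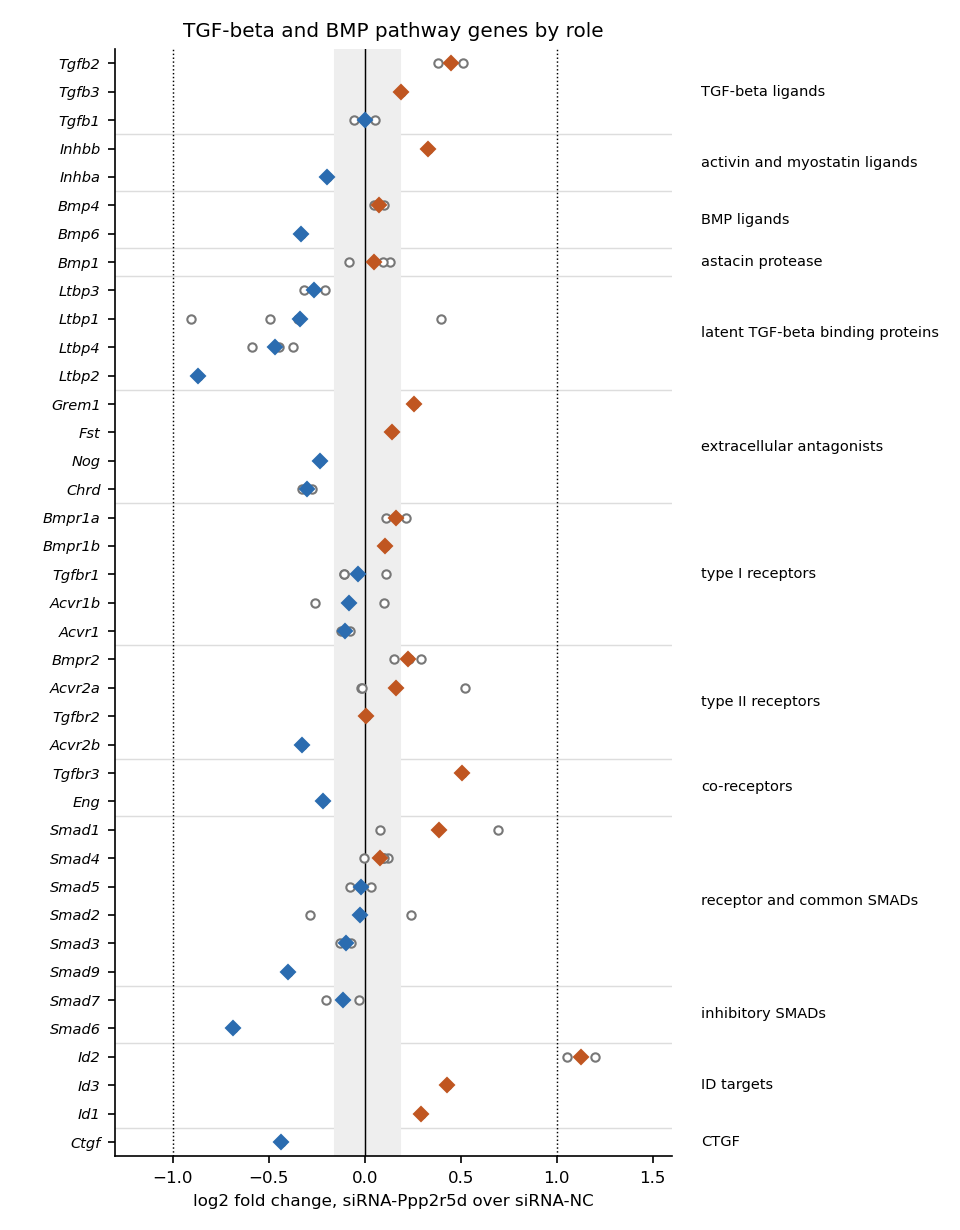
Log2 fold change (x axis, siRNA-Ppp2r5d over siRNA-NC) of the 39 members measured on both arrays, grouped by role. Diamonds are genes (orange above 0, blue below), open circles are the single probes of genes with several, the grey band spans the quartiles of all genes and dotted lines mark 2-fold. *Id2* lies beyond 2-fold at 1.13, the 3 measured ID genes are all to the right and the 4 LTBP genes all to the left.

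The ID genes encode inhibitor of DNA binding proteins, which lack a basic DNA-binding region and hold back basic helix-loop-helix transcription factors by pairing with them. All 3 ID genes that the arrays measured were higher with siRNA-*Ppp2r5d*, with a median log2 fold change of 0.43 and a range from 0.29 to 1.13. *Id2* was measured by 2 probes whose sites in the mm9 build lie on the minus strand at chr12:25778904-25778963 and chr12:25780080-25780139. The part of the transcript these sites belong to was not analysed here. The first 30 of the 60 bases of each probe are shown, because the *Id2* value rests on probes at separate sites, and the probe of *Id3* is set beside them.

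*Id2*, first probe: tgagtgaaccttgtggactctttaattaga
*Id2*, second probe: gtaatgtgcttgtgtgtctgttaaatgttt
*Id3*: tccgcatctcccgatccagacagctgagct

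The first *Id2* probe had an intensity of 1462 ± 146 with siRNA-NC and 2945 ± 294 with siRNA-*Ppp2r5d*, where the error is the one the scanner software gives for a spot. The second had 228 ± 23.0 and 414 ± 41.5. Both probes were thus brighter on the siRNA-*Ppp2r5d* array by more than the scanner error of either array, with log2 fold changes of 1.20 and 1.05 and an SD between them of 0.11. Of 4596 genes whose mean level on the arrays was within a factor of 2 of that of *Id2*, 19, or 0.413%, were at least as far higher.

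*Id1*, with 1 probe, had an intensity of 2189 ± 219 with siRNA-NC and 2344 ± 234 with siRNA-*Ppp2r5d*, a log2 fold change of 0.29 or 1.22-fold. *Id3*, with 1 probe placed in mm9 on the plus strand between 135700075 and 135700249 of chromosome 4, had 1267 ± 127 and 1495 ± 150, a log2 fold change of 0.43 or 1.35-fold. Before scaling, the scanner error ranges of the 2 arrays overlapped for *Id1* and for *Id3*, and they did not for *Id2*. The folds were computed after scaling, where the error ranges were not compared, so this overlap does not describe the scaled values. *Id4* was at 10.1 and 10.8, below the lowest signals that counted as well above background, 14.9 with siRNA-NC and 13.5 with siRNA-*Ppp2r5d*. The ID genes kept their direction under 6 other scalings, but scaling to spike-in RNA, which moved the median of all genes by -0.22 on the log2 scale, gave 0.91 for *Id2*, 0.07 for *Id1* and 0.21 for *Id3*, so that *Id2* was no longer past 2-fold.

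**Figure D2:**
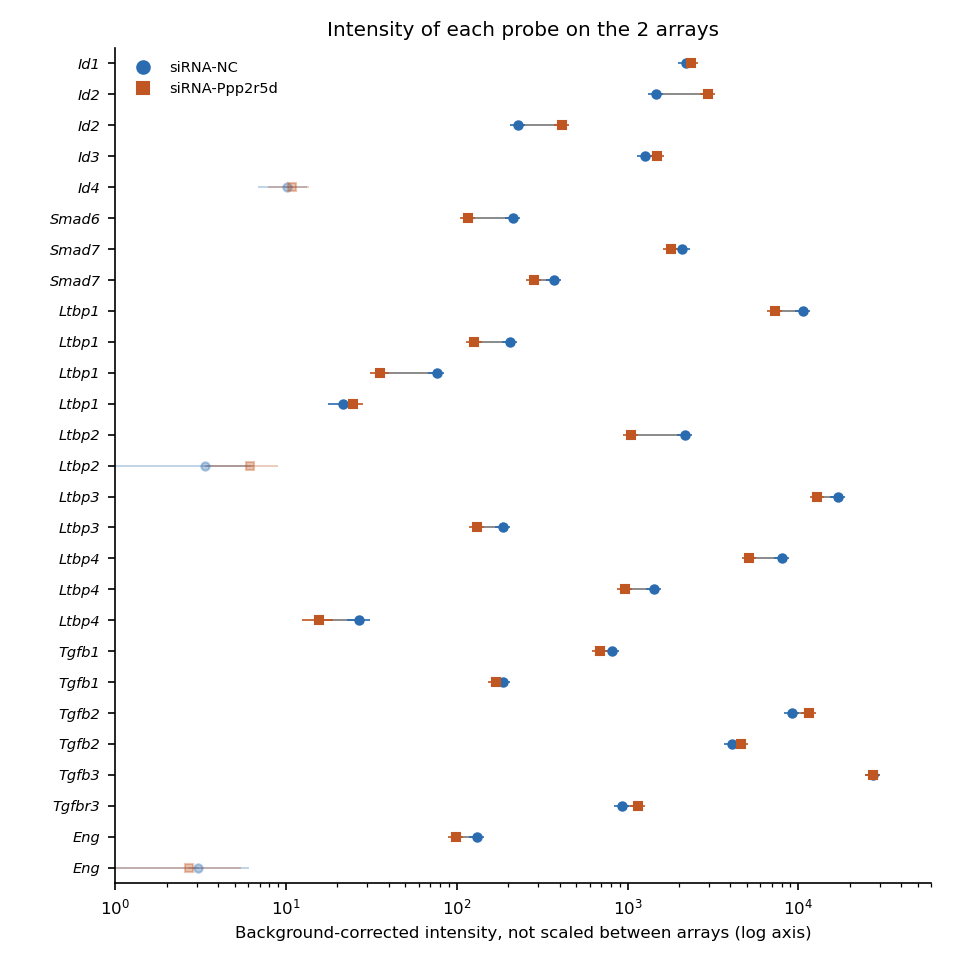
Background-corrected intensity (log axis, not scaled between arrays) of each probe of selected members, with siRNA-NC as circles and siRNA-Ppp2r5d as squares joined by a line, and scanner error as bars. Faded points were not well above background on either array. Both *Id2* probes are shifted to the right with siRNA-Ppp2r5d, and the *Smad6* probe and the bright *Ltbp2* probe to the left.

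The promoters of the members past 1.5-fold and of *Id3* are shown because BMP and TGF-beta signals reach their targets through SMAD complexes on DNA. SMAD proteins are known to bind the letters GTCT, and BMP SMADs also GGCGCC. The sequences below are the 250 bases before the transcription start in RefSeq (GRCm38.p6), printed along the gene's own strand, for *Id2* at chr12:25096093-25096342 (minus strand), *Id3* at chr4:136143572-136143821 (plus strand), *Smad6* at chr9:64022060-64022309 (minus strand) and *Ltbp2* at chr12:84876492-84876741 (minus strand). Capitals mark GGCGCC.

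*Id2*: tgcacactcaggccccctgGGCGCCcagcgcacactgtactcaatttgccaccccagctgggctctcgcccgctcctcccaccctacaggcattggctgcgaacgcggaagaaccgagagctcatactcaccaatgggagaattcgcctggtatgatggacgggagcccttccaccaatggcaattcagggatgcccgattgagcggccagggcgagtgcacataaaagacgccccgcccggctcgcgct
*Id3*: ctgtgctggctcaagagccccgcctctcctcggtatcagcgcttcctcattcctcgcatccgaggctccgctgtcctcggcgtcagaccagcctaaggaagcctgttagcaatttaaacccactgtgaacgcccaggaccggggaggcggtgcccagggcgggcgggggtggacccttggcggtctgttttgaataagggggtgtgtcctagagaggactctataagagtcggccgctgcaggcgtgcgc
*Smad6*: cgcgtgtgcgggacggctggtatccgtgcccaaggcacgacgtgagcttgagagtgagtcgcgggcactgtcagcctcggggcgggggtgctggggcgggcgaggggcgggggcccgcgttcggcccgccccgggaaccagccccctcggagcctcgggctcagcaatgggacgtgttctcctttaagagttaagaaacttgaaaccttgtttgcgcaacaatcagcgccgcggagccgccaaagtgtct
*Ltbp2*: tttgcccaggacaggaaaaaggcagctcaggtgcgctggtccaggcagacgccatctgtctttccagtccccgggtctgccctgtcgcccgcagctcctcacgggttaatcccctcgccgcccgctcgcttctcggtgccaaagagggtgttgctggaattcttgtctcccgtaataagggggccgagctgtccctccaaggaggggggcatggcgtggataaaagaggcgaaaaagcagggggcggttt

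The *Id2* promoter held GGCGCC once, from -231 to -226 relative to the start, and GTCT on either strand once, from -23 to -20. Among these 4 genes GGCGCC was found in the *Id2* window alone, but 10 of the 32 members with a promoter held it. The *Id3* promoter held GTCT at 2 places, *Smad6* at 1 place and *Ltbp2* at 4 places. Of the 2 places in *Id3* and the 4 in *Ltbp2*, 2 in each lay within CAGAC, a longer form of the same motif read on the other strand. The E-box CACGTG was in none of these 4 windows. Of 32851 promoters of the same length in the table, 9.59% held GGCGCC, 82.9% GTCT, 42.2% CAGAC and 6.02% CACGTG on either strand. Of the 32 members with a promoter there, 10 (31.25%), 28 (87.5%), 16 (50%) and 4 (12.5%) did. *Id1* was not among these 32 members. GGCGCC is made of G and C alone, and the GC content was 62.8% for *Id2*, 62.8% for *Id3*, 66.8% for *Smad6* and 61.6% for *Ltbp2*, against a median of 52.4% over all promoters. The part of GC content in these matches was not tested. A match is a description of the letters and not a binding site.

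The inhibitory SMADs, which are themselves induced by the pathway and dampen it, had log2 fold changes of -0.69 (*Smad6*) and -0.11 (*Smad7*), of which the latter lay inside the quartiles of all genes. *Smad6*, which acts mainly on BMP receptors, was measured by 1 probe at chr9:63801378-63801437 in mm9, on the minus strand, and the first 30 of its bases are shown.

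*Smad6*: acagtgtgcgcatcagcttcgccaagggct

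Its intensity was 213 ± 21.6 with siRNA-NC and 116 ± 11.9 with siRNA-*Ppp2r5d*, a log2 fold change of -0.69 or 1.61-fold lower. The arrays differed by more than the scanner error, but 190 of 4718 genes of a similar level, 4.03%, were at least as far lower. *Smad7*, which acts on TGF-beta and BMP receptors alike, had intensities of 2098 and 1801 for one probe and 372 and 283 for the other, with log2 fold changes of -0.03 and -0.20. *Smad6* and the ID genes are both textbook BMP targets, and *Smad6* lay below 0 and the 3 ID genes above it. The value of *Smad6* was -0.42 with normexp background correction and -0.91 with spike-in scaling.

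LTBPs are matrix proteins, and *Ltbp1*, *Ltbp3* and *Ltbp4* bind the latent form of TGF-beta, whereas *Ltbp2* does not and is known for its place on fibrillin microfibrils. All 4 were lower with siRNA-*Ppp2r5d*, under the 75th percentile and under 6 other scalings, with a median log2 fold change of -0.40 and a range from -0.87 to -0.26. *Ltbp2* has 2 probes, and since they do not give the same picture the start of each is shown, the first at chr12:86124167-86124226 and the second at chr12:86149029-86149088 in mm9, both on the minus strand.

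*Ltbp2*, first probe: aaatgcacttccatacaagctagctggggg
*Ltbp2*, second probe: aagcatagctctgagtatctcaaaccattt

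The first probe had an intensity of 2177 ± 218 with siRNA-NC and 1042 ± 104 with siRNA-*Ppp2r5d*, a log2 fold change of -0.87. The second was at 3.38 and 6.20, not well above background on either array, and gives no value. Without the filter on dim probes it enters the mean, and the log2 fold change of *Ltbp2* turns to 0.10. Of 3786 genes of a similar level, 31, or 0.819%, were at least as far lower as the first probe, and with spike-in scaling it reached -1.09 and passed 2-fold.

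*Ltbp3* had intensities of 17070 with siRNA-NC and 12923 with siRNA-*Ppp2r5d* at its brighter probe and 186 and 131 at the other, a log2 fold change of -0.26 for the gene. *Ltbp4* had 8033 and 5167, 1425 and 962, and 26.9 and 15.6 at its 3 probes, and the gene was at -0.47. The probes of these 2 genes all pointed the same way. *Ltbp1* had 10617 and 7308, 204 and 127, and 76.5 and 35.7 at 3 probes that were lower, and 21.5 and 24.8 at a dim probe that was higher, which left the gene at -0.34 with an SD between probes of 0.54.

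Of the ligands, *Tgfb1*, *Tgfb2* and *Tgfb3*, the TGF-beta isoforms, had a median log2 fold change of 0.19. *Tgfb2* was higher at both of its probes, with intensities of 9189 and 11485 at one and 4067 and 4633 at the other, and a log2 fold change of 0.45. *Tgfb1* had 815 and 686 at one probe and 187 and 170 at the other, with a log2 fold change of -0.00, and *Tgfb3* had 27357 and 27306, with 0.19. The value of *Tgfb3* lay below 0 with spike-in scaling. *Inhba*, the activin A subunit, went from 11014 to 8400 and lay at -0.20, and *Inhbb*, the activin B subunit, from 3110 to 3415 at 0.33.

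The BMP ligands *Bmp4* and *Bmp6* were the 2 of 5 that the arrays measured, and *Bmp2*, *Bmp5* and *Bmp7* were not well above background. *Bmp4* had intensities of 27561 and 24909 at one probe and 6982 and 6546 at the other, with a log2 fold change of 0.07. *Bmp6* had 65.2 and 45.4, with a log2 fold change of -0.33. No ligand reached 1.5-fold, where 3.79% of all genes were higher and 5.38% lower, so that this count is near the share of all genes. *Bmp1*, which despite its name is a protease that cleaves procollagen and the BMP antagonist chordin, had a mean intensity over its 3 probes of 4176 and 3608 and a log2 fold change of 0.05.

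The antagonists were spread on both sides of 0, with a median of -0.046. *Grem1* (gremlin, which binds BMP ligands) had intensities of 14826 and 15488 and a log2 fold change of 0.25, *Fst* (follistatin, which binds activins) had 773 and 747 with 0.14, and *Nog* (noggin) had 143 and 107 with -0.23. The lowest value was that of *Chrd* (chordin), -0.30, from intensities of 39.7 and 28.7 at one probe and 25.1 and 17.5 at the other. With normexp correction *Chrd* was at 0.02.

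The receptors, which take up the ligand signal, had 0 members past 1.5-fold, where 3.79% of all genes were higher and 5.38% lower, so that a count of 0 is near the share of all genes. The 5 type I receptors with a value had a median of -0.035 and a range from -0.10 to 0.16, the narrowest of the role groups with more than 3 measured genes. *Acvr1*, a BMP type I receptor, had a mean intensity of 7692 with siRNA-NC and 6348 with siRNA-*Ppp2r5d* and a log2 fold change of -0.10. *Bmpr1a* had mean intensities of 2541 and 2404 with 0.16, and *Tgfbr1* had 673 and 547 with -0.04. Such a mean intensity is carried by the brightest probe, whereas the log2 value weighs the probes alike. For *Tgfbr1* 1 probe was higher and 2 were lower, and the brightest, at 1960 and 1589, lay at -0.11. *Acvrl1*, the endothelial type I receptor, was at 15.5 with siRNA-NC and 11.1, not well above background, with siRNA-*Ppp2r5d*, which gives a log2 bound of -0.01.

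The type II receptors had a median of 0.086 and a range from -0.33 to 0.23. *Tgfbr2*, the TGF-beta type II receptor, had intensities of 39315 and 34623 and a log2 fold change of 0.01. *Bmpr2*, its BMP counterpart, was higher at 3 of 3 probes, with a gene value of 0.23, and *Acvr2b* had 210 and 147 with -0.33. Of the co-receptors, *Tgfbr3* (betaglycan, which presents TGF-beta2 to the receptors) had 927 and 1154 and a log2 fold change of 0.51, and *Eng* (endoglin) had 132 and 99.1 and -0.22. After *Id2*, *Tgfbr3* was the highest of the members.

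The receptor and common SMADs had a median of -0.023 and a range from -0.40, in *Smad9*, to 0.39, in *Smad1*. *Smad1* rests on probes that differ, one with intensities of 14179 and 13106 and a log2 fold change of 0.08, and a dim one with 22.9 and 32.4 and 0.69. *Smad5* had mean intensities of 4553 and 4056 with a log2 fold change of -0.02, and *Smad4* had 3895 and 3621 with 0.08. *Smad2* had probes on opposite sides, -0.29 and 0.24, which left the gene at -0.02. Among the 21 members with several measured probes, the probes of 12 pointed one way and those of 9 did not, and 18 members rest on 1 probe.

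**Figure D3:**
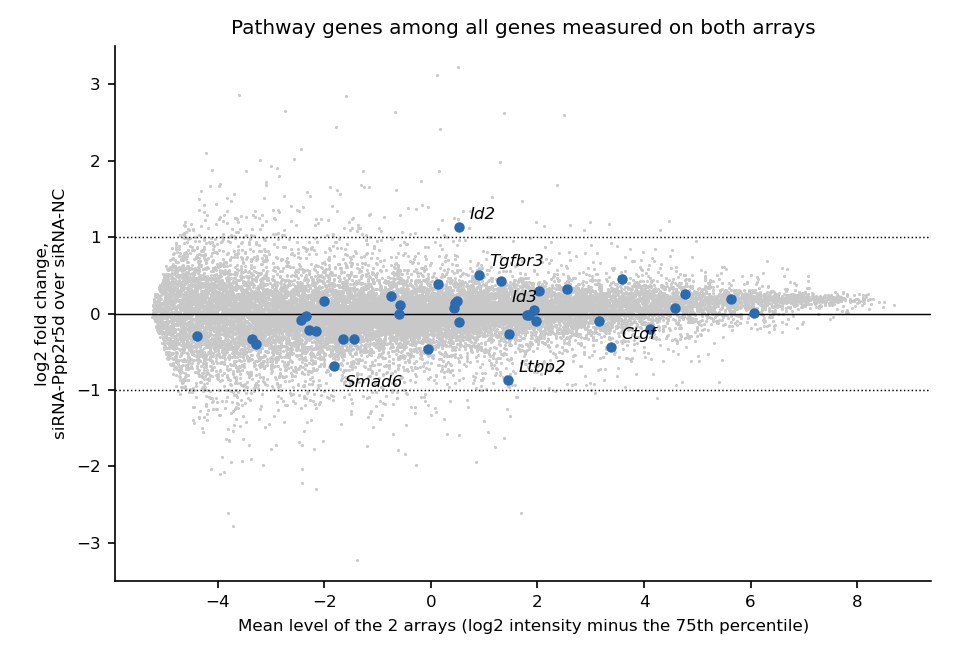
Log2 fold change (y axis, siRNA-Ppp2r5d over siRNA-NC) against the mean level of the 2 arrays (x axis, log2 intensity minus the 75th percentile) for all 20311 genes measured on both arrays, with the 39 members in blue. Most members lie within the cloud of all genes between the dotted 2-fold lines. *Id2* lies above the upper line, where other genes of a similar level also lie, and *Ltbp2* lies near the lower line.

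*Ctgf* (now *Ccn2*), a matricellular protein gene induced by TGF-beta, had an intensity of 7165 with siRNA-NC and 4630 with siRNA-*Ppp2r5d*, a log2 fold change of -0.44 or 1.35-fold lower. To set the members beside the rest of the pathway, 101 other genes in 6 lists were read in the same way. Of these, 79 were measured on both arrays, 40 above 0 and 39 below, with a median of 0.014. At 2-fold 0 were higher and 1 was lower, *Gdf3*, a Nodal-related ligand, with intensities of 76.0 and 24.1 at 1 of its 2 probes and a log2 fold change of -1.47. With normexp correction *Gdf3* was not past 2-fold. At 1.5-fold 4 were higher and 6 lower. Over the 6 lists together, all of these counts lie near the shares of all genes. Those shares were 1.01% and 1.42% at 2-fold and 3.79% and 5.38% at 1.5-fold.

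Among 20 other TGF-beta targets 19 had a value, 9 above 0 and 10 below, with a median of -0.021. The ends of their range, named after the values were seen, were *Tgfbi*, a TGF-beta-induced matrix protein, at 265 and 125 with -0.89, and *Tagln*, a smooth muscle actin-binding protein, at 8174 and 12887 with 0.85. The TGF-beta targets thus did not share a direction. Of 11 other BMP targets 9 had a value, 4 above 0 and 5 below, with a median of -0.015, a range from -0.42 to 0.38 and 0 past 1.5-fold, a count near the share of all genes.

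The 20 other intracellular regulators, such as *Ski*, *Smurf1* and *Tgif1*, were all measured, 11 above 0 and 9 below, and lay between -0.22 and 0.28. The 15 other extracellular regulators with a value ranged from -0.60 to 0.39, and the 6 other receptors and co-receptors from -0.69 to 0.32. Of the 21 other ligands 10 had a value, 7 above 0, with a median of 0.34. At 1.5-fold 3 of these 10 were higher and 2 lower, both above the shares of all genes, 3.79% and 5.38%. Counts this small were not tested. The 3 that were higher, named after the values were seen, were near background: *Gdf5* (21.3 and 29.0), *Nodal* (20.7 and 27.3) and *Gdf6* (16.0 and 21.0). The 2 that were lower, named in the same way, were *Gdf3* and *Inha*. *Inha* had 1 probe, with intensities of 559 and 296 and a log2 fold change of -0.72, or -0.94 with spike-in scaling. The bright *Gdf15*, at 27872 and 25912, had a log2 fold change of 0.09.

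**Figure D4:**
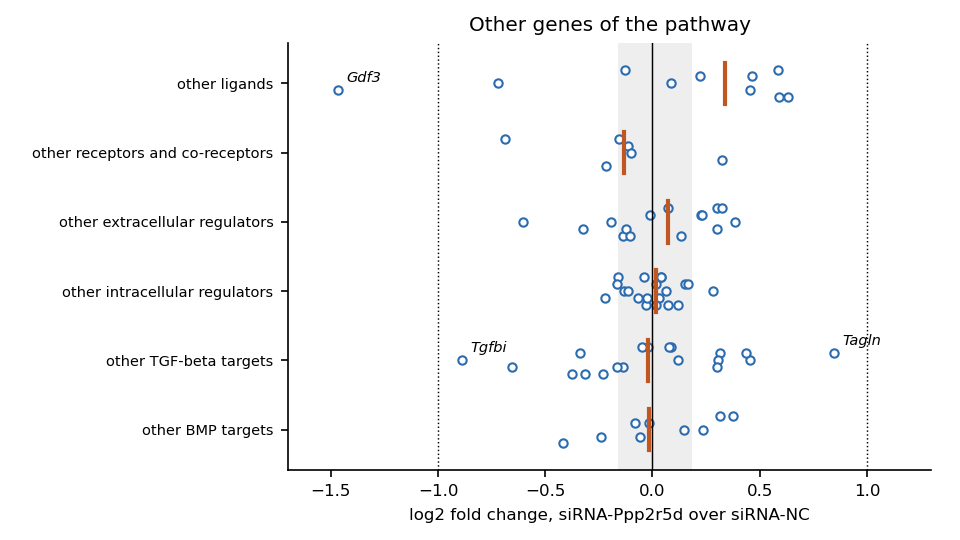
Log2 fold change (x axis, siRNA-Ppp2r5d over siRNA-NC) of 79 other pathway genes measured on both arrays, in 6 lists, with each list's median as an orange bar, the quartiles of all genes as a grey band and 2-fold as dotted lines. *Gdf3* lies beyond 2-fold at -1.47, a call that normexp correction does not keep, and the intracellular regulators and BMP targets all lie between -0.42 and 0.38.

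The direction of a small value depended on how the arrays were scaled. Of the 39 members, 25 kept their sign under 6 other scalings and 14 did not. With spike-in scaling 9 members lay above 0 and 30 below, beside a median of all genes of -0.19. *Id2* ranged from 0.91 to 1.16 over these scalings, *Ltbp2* from -1.09 to -0.84 and *Smad6* from -0.91 to -0.42, so their order relative to 0 did not turn.

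**Figure D5:**
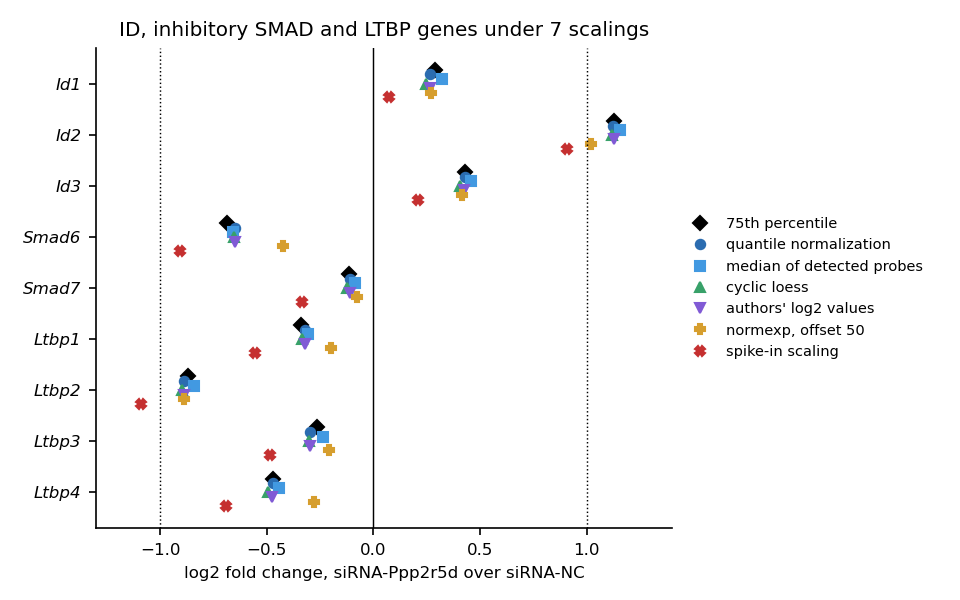
Log2 fold change (x axis, siRNA-Ppp2r5d over siRNA-NC) of ID, inhibitory SMAD and LTBP genes under the 75th percentile (black diamonds) and 6 other scalings, with dotted lines at 2-fold. Spike-in scaling puts every gene further left, with *Id2* at 0.91, and no scaling moves any of the 9 genes across 0.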

How the data were processed

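The authors deposited, for each of the 2 arrays, the output of Agilent Feature Extraction 10.7.1.1 with a background-corrected intensity for every spot, and a table of log2 values for all probes. Set against the intensities, the deposited log2 table matched a quantile normalization, with a median absolute difference of 1.33e-06. Samples were grouped by the treatment label.

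Of 59305 non-control spots, 35544 (siRNA-NC) and 35174 (siRNA-*Ppp2r5d*) were well above background and 0 saturated. Outlier spots, 226 and 188, were left out, spots of a probe averaged on the log2 scale, and the 75th percentile over non-control probes subtracted. A gene well above background on 1 array alone has a bound, set against the higher of the other array's signal and its lowest signal well above background. The number of arrays limits the precision, and no test was run.

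All 45 members may be named. Values on both arrays are given for members past 1.5-fold and for the role group of any member past 2-fold, and up to 3 examples by intensity otherwise. Genes at the end of a range, probes that disagree, and single markers, *Smad2* and *Bmp6* were named after their values were seen. The members and all lists were chosen with earlier results of these data known. Gene steps were tested on simulated data. Of the members, 44 are symbols in the RefSeq gene table, and *Ctgf* is *Ccn2* there. Promoters of 32 members were matched by symbol. Probe coordinates are those of the array design, in mm9. Alternatives were scaling to 10 spike-in probes, to the median of detected probes, by cyclic loess or by quantiles, normexp with an offset of 50, the deposited log2 values, 2 other filters on dim probes, no bounds, all outlier spots, the brightest probe of a gene, and thresholds of 1.5-fold and 4-fold. Python 3.11.15 (pandas 2.3.3, NumPy 2.4.6, matplotlib 3.10.9) and limma 3.58.1 in R 4.3.3 were used.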

Additional observations from a re-analysis of the deposited data

How the results depend on the processing

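With 1 array per condition, no replicate could be left out. No paired analysis was possible because each condition has 1 array. Of the summary values, 138 recomputed values stayed within 1.5-fold of the reported count or within 0.12 on the log2 scale, the median SD between probes of a gene, and 36 moved.

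Spike-in scaling lowers all genes alike. It left 0 members at least 2-fold higher and 1 lower (*Ltbp2*), and 0.555% of all genes higher and 2.89% lower, with 2 genes of the pathway lists lower. Medians were then -0.24 for the members, -0.19 for all genes, -0.030 for TGF-beta ligands, -0.62 for LTBPs, -0.26 for antagonists, -0.25 for type I receptors, -0.13 for type II receptors, -0.24 for receptor and common SMADs and 0.21 for ID targets, and *Ppp2r5d* was at -2.83. Normexp, which draws dim probes together, gave 0.287% higher and 0.203% lower, 0 pathway-list genes lower (1, *Gdf3*, without it) and -0.24 for LTBPs. The median of TGF-beta ligands was 0.057 with quantile normalization, 0.051 with cyclic loess and 0.064 with the deposited log2 values, and the cause was not tested.

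Keeping dim probes gave 2.53% of all genes higher and 2.99% lower, with 2 pathway-list genes in each direction. Keeping all positive and significant probes gave 3.80% and 4.54%, with 3 in each direction. Both turned *Ltbp2* to 0.10 by adding its dim probe. By construction, thresholds of 1.5-fold and 4-fold changed the counts, to 3.79% higher and 5.38% lower with 2 members lower at 1.5-fold, and to 0.0924% higher and 0.0971% lower with 0 members higher at 4-fold. Log2 values within 0.12 of 0 are no larger than the SD between probes, and all 84 member probes, bright or dim, have only 1 spot each.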
